A study of Mus musculus with 36 samples.

Results

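Ribosome biogenesis factors are the proteins that make ribosomes, and 36 genes for them were followed in mouse liver on 2 diets over the day. The genes are a list fixed by name, and the list was chosen with earlier results of these data known. Sorted by role, they were 3 subunits of RNA polymerase I, 7 factors of ribosomal RNA modification and 11 factors of small subunit assembly. The others were 11 factors of large subunit assembly and 4 abundant nucleolar proteins. Of the 36, 35 had a probe set that the array annotation gives to that gene alone, and the brightest such probe set stood for the gene. Noc2l, a factor of large subunit assembly, is not analysed here. All 35 passed the filter on dim genes, among 13956 genes tested of 19938 measured.

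The livers came from C57BL/6J mice, an inbred laboratory strain, aged 16 weeks. One group of mice ate normal chow and the other a high fat diet that gave 60% of its energy as fat for 10 weeks, both freely, in a cycle with 12 h of light. Livers were taken every 4 h from ZT0 to ZT20, Zeitgeber time (ZT) being the hours since lights on, with 3 samples for each diet and time and 1 array for each of the 36 samples. All mice were of this strain, and the labels name no sex, no food intake and no body weight. Nothing in the labels says whether the samples of a group came from different cages or litters, so the p-values cover the spread among these samples, part of which may be technical.

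Ribosomes are built mainly in the nucleolus, where RNA polymerase I transcribes the long precursor of the 18S, 5.8S and 28S ribosomal RNAs. Small nucleolar ribonucleoproteins then methylate and pseudouridylate the precursor, and many assembly factors fold it, cut it and join it to ribosomal proteins to give the small and the large subunit. In liver, making ribosomes is known to follow feeding and growth signals, and the transcription factor MYC is a textbook activator of these genes.

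Averaged over the 6 times, transcripts of 20 of the 35 factors were lower on high fat diet and none was higher. The share was 57.1%, against 9.8% of all tested genes lower and 11.2% higher in the same contrast. Since the list was chosen with earlier results of these data known, this excess is not independent evidence. The differences were small, from -0.29 for Gnl3 to 0.04 for Dkc1 on the log2 scale, with a median of -0.13 against 0.017 over all tested genes. Of the 35, 32 lay below 0, or 91.4%, where 42.5% of all tested genes did. No factor was higher at an unadjusted p under 0.05 either. Calls here and below are those of limma, with a mean for each diet and time and Benjamini-Hochberg adjustment over all tested genes at 0.05, on log2(intensity + 16), a scale that understates the change of dim genes. In a piece of whole liver, a smaller number of cells of a type and less RNA per cell cannot be told apart.

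**Figure D1:**
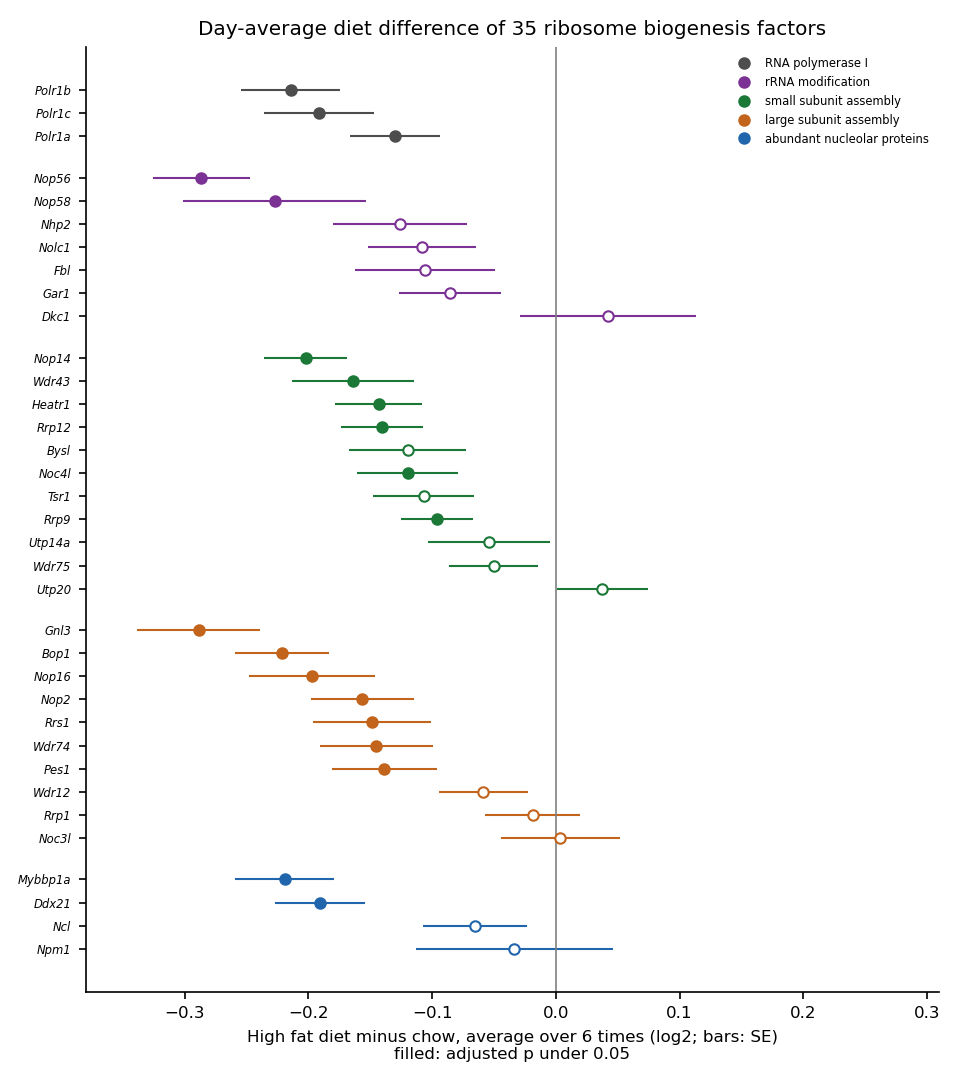
The horizontal axis is the difference between high fat diet and chow, averaged over 6 times, in log2 units, with a row for each of 35 factors grouped by role. Points are fitted differences, bars are standard errors, and filled points mark the 20 factors with an adjusted p under 0.05, all of which lie left of 0.

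All 3 subunits of RNA polymerase I were lower on high fat diet. Polr1b encodes the second largest subunit, which forms part of the catalytic centre, and it fell by 0.21 ± 0.04 (SE), from 8.53 ± 0.19 (SD, n = 18) on chow to 8.32 ± 0.12 (SD, n = 18), with an adjusted p of 0.000169. Polr1c, a subunit shared with RNA polymerase III, fell by 0.19 ± 0.04 (adjusted p = 0.00195), and Polr1a, the largest subunit, fell by 0.13 ± 0.04 (adjusted p = 0.00999). In linear terms the falls were 13.8%, 12.4% and 8.62%.

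Of the 7 factors of ribosomal RNA modification, 2 were lower, and both belong to the ribonucleoprotein that guides methylation of the ribose. Nop56, a scaffold protein of that particle, fell by 0.29 ± 0.04, or 18.0% in linear terms, and its adjusted p of 2.25e-06 was the smallest among the factors. Its partner Nop58 fell by 0.23 ± 0.07 (adjusted p = 0.0264). Fbl encodes fibrillarin, the methyltransferase of the same particle, and its difference was -0.11 ± 0.06, with an adjusted p of 0.200. A second probe set of Fbl, dimmer than the first, gave -0.19 ± 0.05 with an adjusted p of 0.0170, so the probe sets of this gene disagree on the call. Dkc1, the pseudouridine synthase, with its partners Nhp2 and Gar1 and the chaperone of these particles Nolc1, had differences of 0.04, -0.13, -0.09 and -0.11, and none of the 4 was called.

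Of the 11 factors of small subunit assembly, 6 were lower. Nop14 works in the small subunit processome, the large particle that forms on the precursor RNA, and it fell by 0.20 ± 0.03 (adjusted p = 4.10e-05). Wdr43 and Heatr1, both of the early group that binds the start of the precursor, fell by 0.16 ± 0.05 and 0.14 ± 0.04, while Wdr75 of the same group differed by -0.05 ± 0.04 without a call. Rrp12, which accompanies pre-ribosomes to the cytoplasm, fell by 0.14 ± 0.03, Noc4l, the partner of Nop14, by 0.12 ± 0.04, and Rrp9, a protein of the U3 particle, by 0.10 ± 0.03. The call for Noc4l was the least firm of the 20, with an adjusted p of 0.0350 that was above 0.05 in 17 of 48 alternative settings. Tsr1 and Bysl, which act late in the path, differed by -0.11 ± 0.04 and -0.12 ± 0.05 with adjusted p of 0.0622 and 0.0704. Utp14a differed by -0.05 ± 0.05 and Utp20 by 0.04 ± 0.04.

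Of the 10 measured factors of large subunit assembly, 7 were lower. Gnl3 encodes nucleostemin, a nucleolar GTPase, and had the greatest fall of all 35, 0.29 ± 0.05 (adjusted p = 6.64e-05), or 18.1% in linear terms. Bop1 and Pes1 belong with Wdr12 to the PeBoW complex, which is needed to process the 28S side of the precursor. Bop1 fell by 0.22 ± 0.04 (adjusted p = 6.80e-05) and Pes1 by 0.14 ± 0.04 (adjusted p = 0.0172), while Wdr12 differed by -0.06 ± 0.04 without a call. Nop16 fell by 0.20 ± 0.05, Nop2, a methyltransferase of the 28S RNA, by 0.16 ± 0.04, Rrs1, which helps to bring in the 5S particle, by 0.15 ± 0.05, and Wdr74 by 0.15 ± 0.05. Rrp1 and Noc3l differed by -0.019 ± 0.039 and 0.0037 ± 0.048.

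Among the 4 abundant nucleolar proteins, 2 were lower. Mybbp1a, a nucleolar protein that binds MYB and takes part in processing of the precursor, fell by 0.22 ± 0.04 (adjusted p = 0.000137), and the RNA helicase Ddx21 fell by 0.19 ± 0.04 (adjusted p = 0.000245). Ncl and Npm1 encode nucleolin and nucleophosmin, major proteins of the nucleolus, and differed by -0.07 ± 0.04 and -0.03 ± 0.08 with adjusted p of 0.300 and 0.818. The value for Npm1 is from the probe set of that gene alone, and 3 brighter probe sets that the annotation shares between Npm1 and Gm15484 gave -0.04, -0.04 and -0.05.

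Values in every sample are given for the 5 factors with the smallest p in this contrast, as log2(intensity + 16) in the order of the sample numbers.
On chow, Nop56 read 9.25, 9.32 and 9.30 at ZT0, 9.26, 8.94 and 8.98 at ZT4, 8.97, 9.03 and 9.06 at ZT8, 9.39, 9.51 and 9.49 at ZT12, 9.19, 8.95 and 9.29 at ZT16, and 9.23, 8.96 and 9.15 at ZT20. Nop56 on high fat diet read 8.80, 8.84 and 8.94 at ZT0, 8.76, 8.72 and 8.87 at ZT4, 8.99, 9.12 and 9.02 at ZT8, 8.95, 8.75 and 9.10 at ZT12, 8.78, 8.84 and 8.90 at ZT16, and 8.98, 9.0 and 8.78 at ZT20. All 3 high fat diet values lay below all 3 chow values at ZT0, ZT4, ZT12 and ZT16, and the diets overlapped at ZT8 and ZT20. Over the 18 chow samples, Nop56 ran from 8.94 through a median of 9.21 to 9.51, and 11 of the 18 lay above every high fat diet sample.

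On chow, Nop14 read 7.71, 7.82 and 7.81 at ZT0, 7.70, 7.63 and 7.46 at ZT4, 7.58, 7.49 and 7.51 at ZT8, 7.68, 7.87 and 7.70 at ZT12, 7.80, 7.64 and 7.71 at ZT16, and 7.54, 7.69 and 7.56 at ZT20. Nop14 on high fat diet read 7.35, 7.33 and 7.53 at ZT0, 7.39, 7.48 and 7.56 at ZT4, 7.42, 7.47 and 7.50 at ZT8, 7.55, 7.24 and 7.41 at ZT12, 7.54, 7.45 and 7.38 at ZT16, and 7.58, 7.61 and 7.48 at ZT20. For Nop14 the diets were apart at ZT0, ZT12 and ZT16, and 12 of 18 chow samples exceeded the highest high fat diet sample, 7.61. Its fitted difference was below 0 at all 6 times, from -0.38 at ZT0 to -0.04 at ZT20.

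On chow, Gnl3 read 8.41, 8.27 and 8.36 at ZT0, 8.65, 8.00 and 8.50 at ZT4, 8.49, 8.57 and 8.71 at ZT8, 8.73, 8.82 and 8.87 at ZT12, 8.43, 8.11 and 8.45 at ZT16, and 8.57, 8.43 and 8.46 at ZT20. Gnl3 on high fat diet read 8.18, 8.14 and 8.26 at ZT0, 8.20, 8.12 and 8.31 at ZT4, 8.38, 8.12 and 8.49 at ZT8, 8.05, 8.02 and 8.34 at ZT12, 8.12, 8.11 and 8.32 at ZT16, and 8.07, 8.29 and 8.13 at ZT20. Gnl3 on chow was highest at ZT12, and the sample of 8.00 at ZT4 was below every high fat diet sample. The high fat diet samples stayed between 8.02 and 8.49 at all times.

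On chow, Bop1 read 8.61, 8.83 and 8.93 at ZT0, 8.71, 8.67 and 8.48 at ZT4, 8.61, 8.51 and 8.73 at ZT8, 8.76, 8.90 and 8.82 at ZT12, 8.87, 8.87 and 8.76 at ZT16, and 8.68, 8.83 and 8.72 at ZT20. Bop1 on high fat diet read 8.51, 8.44 and 8.54 at ZT0, 8.35, 8.53 and 8.61 at ZT4, 8.63, 8.53 and 8.41 at ZT8, 8.68, 8.46 and 8.42 at ZT12, 8.51, 8.49 and 8.29 at ZT16, and 8.61, 8.75 and 8.55 at ZT20. Bop1 differed between diets most at ZT16, by -0.40 ± 0.09, and the diets were also apart at ZT0 and ZT12.

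On chow, Mybbp1a read 8.47, 8.81 and 8.83 at ZT0, 8.86, 8.80 and 8.75 at ZT4, 8.56, 8.54 and 8.66 at ZT8, 9.02, 8.90 and 8.84 at ZT12, 8.82, 8.92 and 8.82 at ZT16, and 8.69, 8.71 and 8.78 at ZT20. Mybbp1a on high fat diet read 8.38, 8.46 and 8.51 at ZT0, 8.45, 8.68 and 8.49 at ZT4, 8.80, 8.95 and 8.54 at ZT8, 8.48, 8.51 and 8.43 at ZT12, 8.56, 8.46 and 8.40 at ZT16, and 8.44, 8.78 and 8.51 at ZT20. For Mybbp1a the diets were apart at ZT4, ZT12 and ZT16, and at ZT0 a single chow sample, 8.47, fell within the range of high fat diet.

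The second question was when in the day the diets differed. At ZT0, lights on, 12 of the 35 factors were lower on high fat diet against 3.75% of all tested genes, and at ZT12, lights off, another count of 12 against 2.97%. At ZT16 only Bop1 and Mybbp1a were lower, against a background of 1.18%. None was called at ZT4, ZT8 or ZT20, where 3.69%, 0.774% and 2.04% of all tested genes were called in either direction, while 6, 3 and 2 factors had an unadjusted p under 0.05 in limma at these times. The shares of all tested genes at that unadjusted threshold were not counted. With array quality weights, 5 factors were lower at ZT4 and 2 at ZT20, while at ZT8 none was lower and 4 were higher on high fat diet. These weights also raised the day-average calls over all tested genes, to 2263 higher and 1996 lower from 1570 and 1367. Shares of all tested genes at single times under the weights are not given. The median difference of the 35 factors was -0.28 at ZT0, -0.10 at ZT4, 0.02 at ZT8, -0.29 at ZT12, -0.14 at ZT16 and -0.08 at ZT20, while the median of all tested genes stayed between 0.003 and 0.035.

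**Figure D2:**
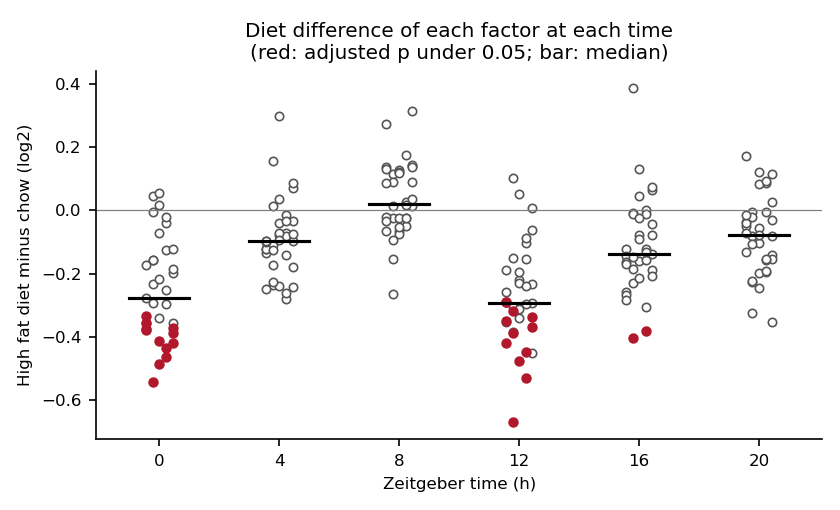
The vertical axis is the log2 difference between high fat diet and chow and the horizontal axis the Zeitgeber time in hours, with a point for each of 35 factors at each time. Bars are medians and red points have an adjusted p under 0.05, of which 12 stand at ZT0, 12 at ZT12 and 2 at ZT16.

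The called sets at ZT0 and ZT12 shared 8 factors, Polr1b, Polr1c, Nop56, Nop14, Heatr1, Rrp12, Nop2 and Ddx21, 66.7% of each set. At ZT0 Polr1b fell most, by 0.54 ± 0.10 (adjusted p = 0.00118), followed by Pes1 with 0.48 ± 0.10 and Rrs1 with 0.46 ± 0.12. At ZT12 Gnl3 fell most, by 0.67 ± 0.12 (adjusted p = 0.000858), followed by Nop56 with 0.53 ± 0.10 and Polr1c with 0.48 ± 0.11. The lists also differed: Polr1a, Nolc1, Pes1 and Rrs1 were called at ZT0 and not at ZT12, and Rrp9, Gnl3, Wdr74 and Mybbp1a at ZT12 and not at ZT0. Whether a factor differed more at 1 of these times than at the other was tested only through the interaction given further on.

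Without any model, all 3 high fat diet samples lay below all 3 chow samples for 20 factors at ZT0 and 25 at ZT12, against 11.5% and 13.0% of all tested genes. The counts called at single times rested on few samples. At ZT0 the count was 4 without chow sample 3 and 5 without high fat diet sample 1, and at ZT12 it was 4 without chow sample 2 and 6 without high fat diet sample 2. The 2 calls at ZT16 became 0 without chow sample 2, high fat diet sample 2 or high fat diet sample 3, and 1 without chow sample 1 or 3. Nop58, Wdr43, Noc4l and Nop16 were called in the day average and at no single time.

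The average level of the 35 factors in a sample was expressed as the mean of each gene's log2 value minus that gene's mean over 36 samples. On chow at ZT12 it was 0.16, 0.24 and 0.17 in the 3 samples, the greatest of any group, and at ZT0 it was 0.05, 0.16 and 0.15. On high fat diet it was -0.06, -0.12 and -0.06 at ZT12, and -0.185, -0.17 and -0.03 at ZT0. The diets did not overlap at either time. They did not overlap at ZT16 either, with 0.0017 to 0.086 on chow and -0.084 to -0.023 on high fat diet. At ZT8 the values were -0.07, -0.03 and -0.00032 on chow and 0.02, 0.02 and -0.02 on high fat diet, and these overlapped. High fat diet sample 2 at ZT20 stood apart with 0.10, where the other 2 samples had -0.09 and -0.08, and chow sample 2 at ZT4 with -0.13, where the others had 0.09 and -0.0049. These 2 arrays are also among the 4 of lowest quality weight, the others being chow sample 1 at ZT16 and chow sample 3 at ZT20. Without the 4 arrays, 21 factors were lower in the day average, 13 at ZT0 and 17 at ZT12.

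**Figure D3:**
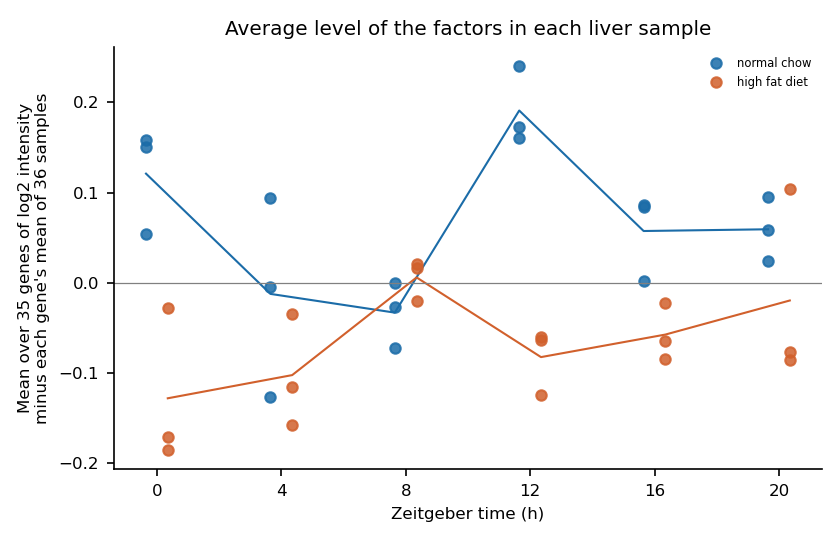
The vertical axis is the mean over 35 factors of the log2 value minus the gene's own mean, and the horizontal axis the Zeitgeber time in hours. Each point is a sample, lines join group means, and the chow samples lie above all high fat diet samples at ZT0, ZT12 and ZT16 but not at ZT4, ZT8 and ZT20.

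Other measures moved with the diet at the same times. Of 18 tested markers of Kupffer cells and other macrophages, 12 were higher on high fat diet in the day average, against 11.2% of all tested genes. None was called lower, and 1 of the 18 lay below 0. Among the 12 were Mpeg1, higher by 0.57 ± 0.07, and Cd5l, by 0.56 ± 0.10. The median difference of the 18 was 0.67 at ZT0 and 0.48 at ZT12, and 0.11 to 0.19 at the other times. The summed intensity of the 20 measured markers, 2 of them below the filter on dim genes, was 5331 to 5837 on chow and 9309 to 10850 on high fat diet at ZT0, and 3373 to 5634 against 5323 to 8010 at ZT12. Over all times it was 3373 to 8324 on chow and 4842 to 10850 on high fat diet. The median intensity of the whole array was 75.7 to 86.5 on chow and 85.6 to 95.6 on high fat diet at ZT0, where scaling by the array median gave 19 called factors and quantile normalization 12. The part of macrophage RNA in the lower levels of the factors was not tested.

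Hepatocyte markers, which define most of the tissue, summed to 80540 to 94820 on chow and 82700 to 94040 on high fat diet over 10 of 12 listed genes. Of these 10, Cps1 and Hnf4a were lower in the day average and none was higher. Of the other lists, T, NK and B cell markers had 3 of 6 tested higher, stellate cell and fibroblast markers 3 of 10, bile duct markers 1 of 3 and cell cycle genes 5 of 12, and sinusoidal endothelial markers had 1 of 10 lower. Of all tested genes, 11.2% were higher and 9.8% lower in the same contrast. The endothelial share of 10.0% is near that background. None of 2 tested neutrophil and 2 tested red blood cell markers was called. The sums include genes below the filter on dim genes. For cell cycle genes 15 were summed and 12 tested, and for T, NK and B cell markers 10 and 6. Summed cell cycle intensity was 2024 to 2315 on chow and 2686 to 3097 on high fat diet at ZT12, and 1967 to 2195 against 2051 to 3256 at ZT0. T, NK and B cell sums were 712.6 to 751.2 against 860.4 to 977.4 at ZT0, and 657 to 741.2 against 832.9 to 1098 at ZT12. Endothelial sums were 4913 to 5570 against 6174 to 6279 at ZT0 and overlapped at ZT12. Red blood cell sums overlapped at ZT0 and were 1607 to 1680 against 1206 to 1552 at ZT12. The part of all these cells was not tested.

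The third comparison concerned the course over the day on each diet. The planned test was a 24 h wave, given further on, and an F test of the time means was added after the data were seen. By this F test, 17 of the 35 factors differed between the 6 times on chow, 48.6% against 21.0% of all tested genes. On high fat diet 6 did, 17.1% against 16.8%, which is close to the background. The 6 were Polr1a, Polr1c, Rrp9, Rrp12, Nop16 and Rrs1. The fall in the number from 17 to 6 is not itself a test of a difference between the diets.

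On chow the factors were high at ZT0 and ZT12. The median deviation from a gene's own mean over both diets was 0.14 at ZT0, 0.20 at ZT12 and -0.05 at ZT8. Over all tested genes it was -0.005 at ZT0 and -0.007 at ZT12. Above that mean lay 30 and 32 of 35 at ZT0 and ZT12, 19 at ZT4, 11 at ZT8, 23 at ZT16 and 23 at ZT20. The mean includes the high fat diet samples, so these counts also hold the diet difference. The highest chow mean fell at ZT12 for 14 factors and at ZT0 for 11, times at which 13.5% and 17.9% of all tested genes peaked. The lowest chow mean fell at ZT8 for 14, and the share of all tested genes lowest there was not counted. On high fat diet the highest mean fell at ZT8 for 13, at ZT20 for 13, at ZT12 for 5 and at ZT0 for 2, where 17.3%, 15.7%, 11.1% and 27.8% of all tested genes peaked.

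**Figure D4:**
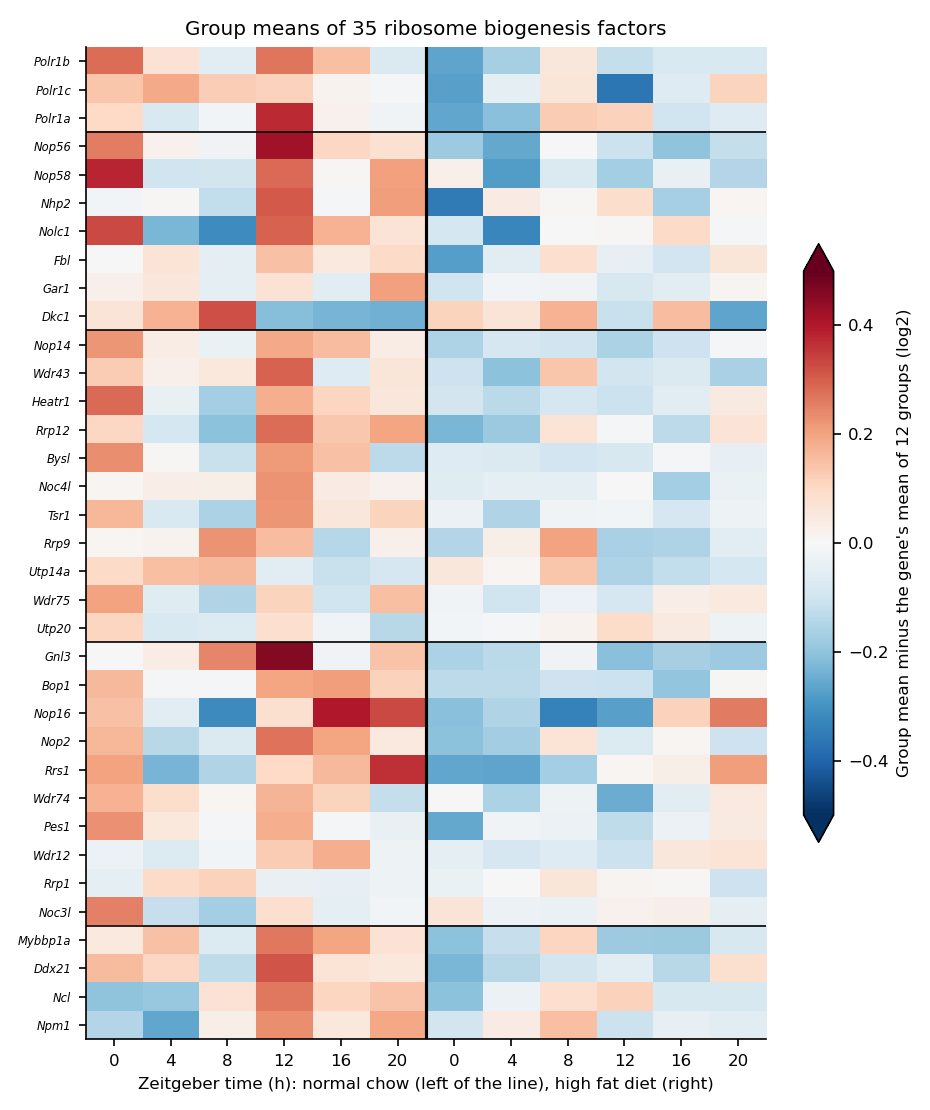
Rows are 35 factors in blocks by role, and columns are the 6 Zeitgeber times in hours on normal chow, left of the line, and on high fat diet, right of it. Colour is the group mean minus the gene's mean of 12 groups in log2 units, and the chow columns at ZT0 and ZT12 are red for most rows, with 30 and 32 of 35 above their mean.

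A single 24 h wave caught only some of this. It was called for 8 factors on chow, 22.9% against 20.6% of all tested genes, and for 3 on high fat diet, Polr1a, Nop16 and Rrs1, 8.57% against 11.0%. Both shares are near the background. The chow count was 5 without chow sample 2 or without chow sample 3 at ZT8. A wave that differed between the diets was called for none of the 35, against 0.0287% of all tested genes. An unadjusted p of 0.05 was passed by 2 factors, and the share of all tested genes passing it was not counted. Of the 17 factors that differed between times on chow by the F test, 6 had a called 24 h wave. The other 11, Polr1a, Polr1b, Nop56, Wdr75, Heatr1, Rrp9, Bysl, Tsr1, Nop2, Gnl3 and Ddx21, had none. Utp14a and Wdr12 had a called 24 h wave on chow and no call in the F test, with adjusted p of 0.228 and 0.149 there.

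The 8 factors with a 24 h wave on chow peaked at different times. Dkc1 and Utp14a peaked in the light phase, at ZT5.12 ± 1.01 (SE) and ZT4.67 ± 1.17, with amplitudes from mean to peak of 0.29 and 0.16. Ncl and Wdr12 peaked soon after lights off, at ZT13.9 ± 0.8 and ZT14.4 ± 1.2. Rrp12, Nolc1, Nop16 and Rrs1 peaked later in the dark phase, at ZT17.4 ± 1.0, ZT18.1 ± 1.0, ZT18.7 ± 0.7 and ZT18.8 ± 0.7. The factors with the smallest p were Nop16, Rrs1 and Ncl.

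On chow, Nop16 read 9.78, 10.04 and 9.93 at ZT0, 9.58, 9.92 and 9.65 at ZT4, 9.38, 9.47 and 9.50 at ZT8, 9.70, 9.98 and 9.87 at ZT12, 10.05, 10.31 and 10.15 at ZT16, and 9.93, 10.20 and 10.18 at ZT20. Nop16 on high fat diet read 9.40, 9.60 and 9.68 at ZT0, 9.53, 9.73 and 9.59 at ZT4, 9.65, 9.53 and 9.11 at ZT8, 9.53, 9.66 and 9.31 at ZT12, 9.92, 9.76 and 9.97 at ZT16, and 10.14, 10.13 and 9.82 at ZT20. Nop16 had an amplitude of 0.32 ± 0.06 on chow (adjusted p = 0.000210) and 0.26 ± 0.06 on high fat diet (adjusted p = 0.00459), with peaks at ZT18.7 and ZT19.1. On chow the 3 samples at ZT8, 9.38 to 9.50, were the lowest of the 18, and on high fat diet the 6 samples at ZT16 and ZT20, 9.76 to 10.14, lay above all the others.

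On chow, Rrs1 read 8.02, 7.52 and 7.81 at ZT0, 7.41, 7.43 and 7.20 at ZT4, 7.51, 7.46 and 7.33 at ZT8, 7.67, 7.72 and 7.64 at ZT12, 7.64, 7.92 and 7.66 at ZT16, and 7.73, 8.06 and 8.05 at ZT20. Rrs1 on high fat diet read 7.16, 7.34 and 7.45 at ZT0, 7.22, 7.33 and 7.40 at ZT4, 7.52, 7.20 and 7.50 at ZT8, 7.78, 7.46 and 7.52 at ZT12, 7.71, 7.47 and 7.65 at ZT16, and 7.72, 7.84 and 7.81 at ZT20. Rrs1 had an amplitude of 0.27 ± 0.05 on chow (adjusted p = 0.000982) and 0.21 ± 0.05 on high fat diet (adjusted p = 0.0188). At ZT0 its chow samples, 7.52 to 8.02, all lay above its high fat diet samples, 7.16 to 7.45.

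On chow, Ncl read 9.72, 9.67 and 9.58 at ZT0, 9.81, 9.39 and 9.80 at ZT4, 10.00, 9.91 and 9.86 at ZT8, 10.12, 10.08 and 10.16 at ZT12, 10.05, 9.91 and 9.92 at ZT16, and 9.95, 9.95 and 10.09 at ZT20. Ncl on high fat diet read 9.60, 9.54 and 9.82 at ZT0, 9.91, 9.76 and 9.80 at ZT4, 10.00, 9.76 and 10.06 at ZT8, 10.02, 9.93 and 9.95 at ZT12, 9.81, 9.70 and 9.82 at ZT16, and 9.55, 9.98 and 9.80 at ZT20. Ncl on chow peaked at ZT13.9 with an amplitude of 0.22 ± 0.04 (adjusted p = 0.00117). On high fat diet the amplitude was 0.14 ± 0.04 (adjusted p = 0.0795), and the difference between the waves had an adjusted p of 0.530.

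After these data were seen, a wave of 12 h was added beside the 24 h wave, since the chow profile had 2 high times. On chow it was called for 4 factors, Polr1b, Nop56, Nolc1 and Heatr1, against 0.33% of all tested genes. Their amplitudes were 0.20, 0.20, 0.27 and 0.17, and the fitted peaks were at ZT1.05 and ZT13.1 for Polr1b, ZT0.20 and ZT12.2 for Nop56, ZT0.40 and ZT12.4 for Nolc1, and ZT0.60 and ZT12.6 for Heatr1. On high fat diet it was called for Polr1c alone, against 0.165%, and a difference between the diets for Polr1b alone, against 0.0717%. For that difference 16 of 35 had an unadjusted p under 0.05, a threshold at which the share of all tested genes was not counted. The call for Polr1c was lost without any 1 of 8 high fat diet samples (1 at ZT0, 1 and 2 at ZT8, 1 and 2 at ZT12, 3 at ZT16, 1 and 2 at ZT20), and that for Polr1b in 29 of 36 fits without 1 array. The median 12 h amplitude of the 35 was 0.12 on chow against 0.06 for all tested genes, and 0.07 on high fat diet against 0.07. With samples 4 h apart, a 12 h wave rests on few points a cycle, and the chow count was 1 under median centring, with no filter on dim genes, and without any 1 of 10 chow samples (2 and 3 at ZT0, 2 at ZT4, 1 and 2 at ZT8, 1 and 2 at ZT12, 2 at ZT16, 2 and 3 at ZT20).

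Whether the diet difference itself changed over the day was tested by the interaction of diet and time. It was called for Rrp12 alone, against 0.631% of all tested genes, while 16 of 35 had an unadjusted p under 0.05. The share of all tested genes with an unadjusted p that low was not counted, so no excess is read from the 16. Weighting arrays by quality raised the count of called factors to 15, and the share of all tested genes under these weights is not given. The count was 0 without chow sample 1 or 2 or high fat diet sample 1 or 2 at ZT8. It was 4 without chow sample 1 at ZT0, and 2 without high fat diet sample 3 at ZT8 or at ZT12 or chow sample 1 at ZT20. The factors with the smallest p were Rrp12 and Polr1b.

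On chow, Rrp12 read 7.51, 7.63 and 7.77 at ZT0, 7.49, 7.42 and 7.43 at ZT4, 7.28, 7.32 and 7.38 at ZT8, 7.72, 7.96 and 7.77 at ZT12, 7.55, 7.87 and 7.59 at ZT16, and 7.73, 7.72 and 7.76 at ZT20. Rrp12 on high fat diet read 7.20, 7.34 and 7.37 at ZT0, 7.35, 7.39 and 7.31 at ZT4, 7.60, 7.68 and 7.53 at ZT8, 7.57, 7.60 and 7.41 at ZT12, 7.42, 7.45 and 7.34 at ZT16, and 7.60, 7.60 and 7.61 at ZT20. Rrp12 (adjusted p = 0.0238 for the interaction) was lower on high fat diet at ZT0 by 0.33 ± 0.08 and at ZT12 by 0.29 ± 0.08. At ZT8 all 3 high fat diet samples lay above all 3 chow samples, a difference of 0.27 ± 0.08 with an adjusted p of 0.135.

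On chow, Polr1b read 8.48, 8.72 and 8.92 at ZT0, 8.61, 8.48 and 8.40 at ZT4, 8.28, 8.37 and 8.46 at ZT8, 8.72, 8.70 and 8.66 at ZT12, 8.69, 8.50 and 8.54 at ZT16, and 8.60, 8.19 and 8.27 at ZT20. Polr1b on high fat diet read 8.17, 8.19 and 8.13 at ZT0, 8.20, 8.27 and 8.31 at ZT4, 8.49, 8.49 and 8.47 at ZT8, 8.26, 8.21 and 8.46 at ZT12, 8.26, 8.41 and 8.38 at ZT16, and 8.26, 8.46 and 8.33 at ZT20. Polr1b had an adjusted p of 0.0706 for the interaction, and its difference ran from -0.54 ± 0.10 at ZT0 to 0.115 ± 0.098 at ZT8 and -0.39 ± 0.10 at ZT12. At ZT8 the order was again turned, with the 3 high fat diet samples at 8.47 to 8.49 and the chow samples at 8.28 to 8.46.

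**Figure D5:**
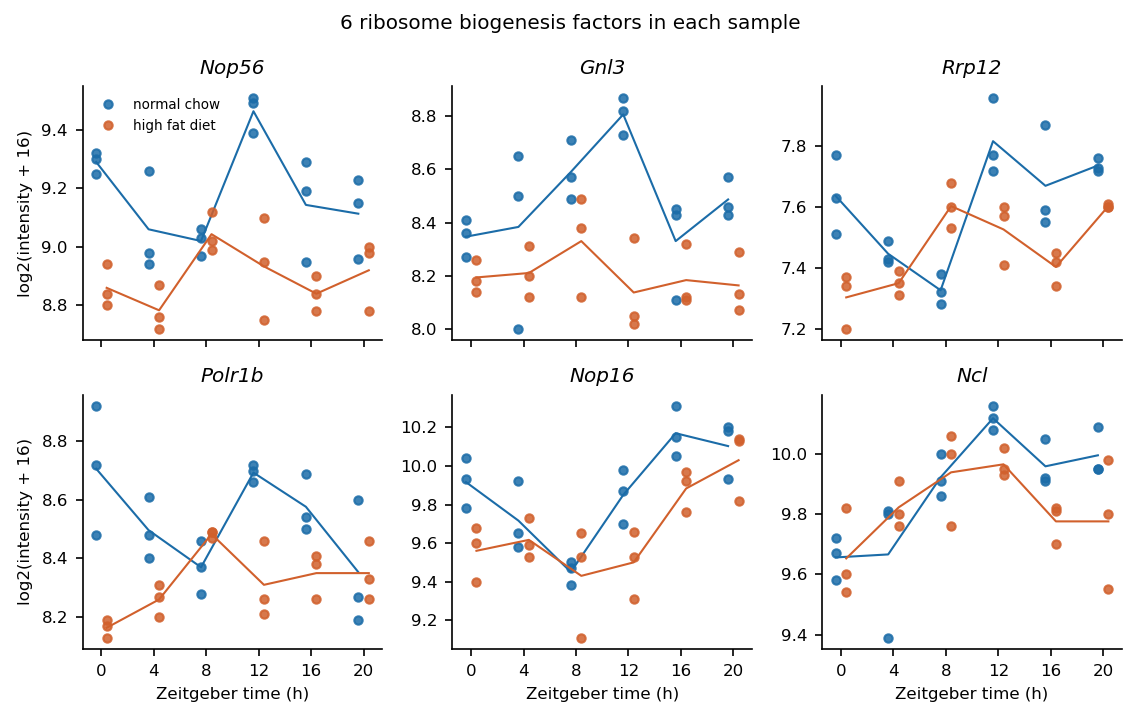
Each panel plots log2(intensity + 16) of 1 factor against Zeitgeber time in hours, with a point for each sample and lines through group means. Nop56 and Polr1b on chow stand high at ZT0 and ZT12, Rrp12 crosses between the diets at ZT8, and the group means of Nop16 are highest at ZT16 and ZT20 on both diets.

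Other genes of the same path, not among the 36, were counted from a wider list. Of 112 tested genes on it, 24 were lower on high fat diet in the day average, 21.4% against 9.8% of all tested genes. Higher were 2, where 11.2% of all tested genes were. The median of the 112 was -0.05. The lowest p among them belonged to Ddx49, an RNA helicase, with -0.23 ± 0.04, Ftsj3, a methyltransferase of the large subunit path, with -0.20 ± 0.03, Las1l, of the nuclease complex that cuts the second internal spacer, with -0.18 ± 0.03, and Rrn3, the factor that brings RNA polymerase I to its promoter, with -0.27 ± 0.05. By role, 4 of 10 further genes for RNA polymerase I, 1 of 15 for modification, 7 of 40 for the small subunit and 12 of 47 for the large subunit were lower. In this order the shares were 40.0%, 6.67%, 17.5% and 25.5%, and that for modification lay under the 9.8% of all tested genes. At ZT0 15 and at ZT12 11 of the 112 were lower, against 3.75% and 2.97% of all tested genes. On chow 21 of the 112 differed between times, 18.8% against 21.0% of all tested genes, which is near the background, and 1 had a 12 h wave, 0.893% against 0.33%. The shares among the 35 factors were 48.6% and 11.4%, and the difference between the lists was not tested.

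Ribosomal protein genes, the cargo of this path, were lower for 44 of 55 tested, 80.0% against 9.8% of all tested genes. None was higher, where 11.2% of all tested genes were. All 55 lay below 0, with a median of -0.19, where 42.5% of all tested genes did. Rpsa fell by 0.38 ± 0.04 and Rpl13 by 0.30 ± 0.04, and the other 2 of smallest p, Rps14 and Rpl7a, by 0.26 ± 0.04 and 0.21 ± 0.03. On chow 2 of the 55 differed between times, 3.64% against 21.0% of all tested genes, where 17 of the 35 biogenesis factors did. On high fat diet 7 of the 55 differed between times, 12.7% against 16.8%, where 6 of the 35 factors did. The differences of these shares were not tested. The diet difference of the 55 genes at ZT4, with a median of -0.23 and 6 called, stood beside -0.23 and 10 called at ZT0 and -0.28 and 9 called at ZT12. Of all 13956 tested genes, 3.75% were called lower at ZT0, 2.97% at ZT12, and 196 genes at ZT4.

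Of 19 tested regulators upstream of the path, 3 were lower, 15.8% against 9.8% of all tested genes. Only 1 was higher, where 11.2% of all tested genes were. The median difference of the 19 was -0.0087, against 0.017 over all tested genes. Myc fell by 1.06 ± 0.23 (adjusted p = 0.000907), from 7.61 ± 1.11 (SD, n = 18) on chow to 6.55 ± 0.40 (SD, n = 18). On chow, Myc read 7.10, 6.68 and 7.40 at ZT0, 6.96, 6.08 and 6.75 at ZT4, 6.58, 8.62 and 6.97 at ZT8, 6.69, 8.93 and 7.43 at ZT12, 9.42, 8.71 and 7.01 at ZT16, and 7.0, 9.54 and 9.15 at ZT20. Myc on high fat diet read 6.32, 6.24 and 6.85 at ZT0, 6.45, 6.06 and 6.09 at ZT4, 6.43, 6.25 and 6.23 at ZT8, 7.67, 6.71 and 6.53 at ZT12, 6.32, 7.11 and 6.53 at ZT16, and 6.60, 6.87 and 6.68 at ZT20. The chow samples of Myc spread from 6.08 to 9.54 and varied widely within a time, such as 6.69, 8.93 and 7.43 at ZT12, whereas the high fat diet samples spread from 6.06 to 7.67. On chow Myc had a 24 h wave of amplitude 0.91 with its peak at ZT16.7 (adjusted p = 0.00854), and its difference between the waves had an adjusted p of 0.724. The call upward was Mycn, a relative of Myc, whose mean on chow, 6.01, lay under the filter of 6.11 and on high fat diet, 6.37, above it. It passed the filter only through the diet on which it was high, so its difference is not read as a result. Eif4ebp1, a brake on translation initiation, fell by 0.23 ± 0.04, and Maf1, a repressor of RNA polymerase III, by 0.18 ± 0.04.

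The letters around the gene starts were also searched. RefSeq promoters of 250 bases before to 50 bases after the start (build GRCm38.p6) were at hand for 30 of the 35 measured factors, and not for Fbl, Rrp12, Bop1, Rrs1 and Npm1. On both strands, CACGTG, the E-box read by MYC and by the clock proteins CLOCK and BMAL1, stood in 6 of 30 (20.0%), against 11.2% of 11085 tested genes with a promoter and 8.09% of all 27025. Before the start alone the order was the other way, with CACGTG in 1 of 30 (3.33%), against 9.53% of tested genes and 6.86% of all. CCGGAA, the core read by ETS factors, stood in 12 (40.0%) against 27.5% of tested genes, TATAAA in 2 (6.67%) against 10.0%, and TTATGTAA, a D-box, in none against 0.794%. CACGTG is its own reverse complement, and none of its matches in the 30 promoters shared a base with a match of another motif. The promoters had a median GC content of 58.0%, against 60.0% for tested genes. Of the 17 factors lower in the day average that had a promoter, 4 held CACGTG and 6 CCGGAA. These shares carry no test, and a match is a description of letters and not a binding site.

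The 4 lower factors with CACGTG are shown with 100 bases before the first base of the gene record, 5′ to 3′, with motif letters in capitals. Of the 6 factors with CACGTG, Nop2 alone had it before the start, followed by the ETS core on each strand, TTCCGG and CCGGAA. The 100 bases of the other 3 held none of the 4 motifs.
Mybbp1a, chr11:72441227-72441326, plus strand: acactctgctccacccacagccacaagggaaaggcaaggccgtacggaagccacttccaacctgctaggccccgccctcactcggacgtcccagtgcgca
Nop2, chr6:125131783-125131882, plus strand: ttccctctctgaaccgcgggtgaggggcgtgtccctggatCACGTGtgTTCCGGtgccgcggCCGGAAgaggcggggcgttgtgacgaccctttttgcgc
Wdr43, chr17:71616078-71616177, plus strand: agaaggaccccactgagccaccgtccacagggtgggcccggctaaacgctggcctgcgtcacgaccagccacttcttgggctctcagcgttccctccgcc
Pes1, chr11:3963875-3963974, plus strand: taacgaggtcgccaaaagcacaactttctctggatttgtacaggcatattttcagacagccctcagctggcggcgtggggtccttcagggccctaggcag
In the other 5 of the 6 factors with CACGTG, it came after the start, and a window of 30 bases around it is printed with CACGTG in capitals.
Mybbp1a, chr11:72441347-72441376, plus strand: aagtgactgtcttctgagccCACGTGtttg
Wdr43, chr17:71616220-71616249, plus strand: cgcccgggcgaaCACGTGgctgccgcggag
Pes1, chr11:3963965-3963994, plus strand: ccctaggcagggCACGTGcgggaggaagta
Tsr1, chr11:74898092-74898121, plus strand: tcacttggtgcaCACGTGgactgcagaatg
Utp20, chr10:88826765-88826794, minus strand: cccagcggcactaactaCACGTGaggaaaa
The first base of CACGTG was base 3 of the transcribed side in Pes1, base 18 in Wdr43, base 25 in Tsr1, base 38 in Utp20 and base 41 in Mybbp1a, counted from 1 at the start in the table, and 60 bases before it in Nop2. For Wdr43 the gene record begins before that start. Tsr1 and Utp20 were not called in the day average, with differences of -0.11 and 0.04, and Nop2, Mybbp1a, Wdr43 and Pes1 fell by 0.16, 0.22, 0.16 and 0.14.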

How the data were processed

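Total RNA from 36 liver samples was hybridised to whole-transcript Affymetrix gene arrays, 1 per sample. The deposited values are linear intensities of 35556 probe sets, made by the authors with Affymetrix Expression Console 1.1.1 and PLIER 2.0, as the submitters' processing notes list them. How background was corrected and arrays were normalized is not given in the sources used here. Array medians were 75.7 to 95.6, and the number of arrays limits the precision. Groups came from the sample labels, and every value column matched a sample.

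Platform annotation, its symbols renewed through entrez identifiers for 99.6%, gave 1 gene to 21789 probe sets, several to 1621 and none listed to 12146. The brightest single-gene probe set stood for a gene. After log2(intensity + 16), genes above the 30th percentile (log2 6.11) were fitted with limma 3.58.1 in R 4.3.3, with 1 mean per diet and time. Contrasts were the mean of 6 high fat diet groups minus that of 6 chow groups, each time, and the interaction (moderated F). A second fit had a 24 h cosine and sine wave per diet. The F test of all times and the 12 h wave were added after the data were seen. Scripts were tested on simulated data.

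The members, gene lists and tests were chosen with earlier results of these data known. Each factor may be named. Of other lists the 4 called genes of smallest p are named, or the 2 of smallest p where none was called, and Myc always. Values by sample are given for the 5 factors of smallest p for diet, 3 for the chow wave and 2 for the interaction. Promoters were printed before the start for up to 4 factors with CACGTG, and the windows after the start were added later. Alternatives covered scaling, filter, offset, probe sets, replicate block, array weights, prior, threshold and leaving out each array.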

Additional observations from a re-analysis of the deposited data

Results flagged for a closer look

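Rrp12 was singled out because its diet difference changed over the day, with an adjusted p of 0.0238 for the interaction in limma. The difference was -0.33 at ZT0, 0.27 at ZT8 and -0.29 at ZT12, with 3 samples a group, and that at ZT8 was not called (adjusted p = 0.135). The interaction call for Rrp12 was lost in 4 of 36 fits without 1 array. Polr1b was singled out because its 12 h wave differed between the diets, with an adjusted p of 0.0486, an amplitude of 0.20 on chow and 0.11 on high fat diet, and fitted peaks at ZT1.05 and ZT7.25. The 12 h wave was added after the data were seen. The call for Polr1b was lost under the replicate block, under median centring, with no filter on dim genes and without the 4 arrays of lowest weight. It was also lost in 29 of 36 fits without 1 array.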

How the results depend on the processing

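The day-average count of 20 lower factors was 20 to 25 under the other scalings, filters, offsets, probe sets, array weights, prior and replicate block, 19 to 23 without each array in turn, and 13 at an adjusted p under 0.01. No factor called in that contrast changed sign in any of 48 alternatives. Noc4l lost its call in 17 of them, and Tsr1, Nolc1, Bysl, Nhp2, Fbl, Gar1, Wdr75 and Wdr12 gained one in 14, 10, 9, 2, 1, 1, 1 and 1. Quantile normalization gave 3 factors with an interaction and 2 with a 12 h wave on high fat diet. Median centring gave 19 factors at ZT0, 1 with a 12 h wave on chow and 0 with a 12 h difference, and over all genes it gave 987 higher and 1930 lower against 1570 and 1367. Centring on the 75th percentile gave 2 with an interaction and 0 with a 12 h wave on high fat diet. With no filter the counts were 1 at ZT16, 1 for the 12 h wave on chow and 0 for its difference, and a filter at the 50th percentile gave 2 with an interaction. Array quality weights gave 5 lower at ZT4, 4 at ZT8, all of them higher on high fat diet, 20 lower at ZT12, 7 at ZT16, of which 6 were lower and 1 higher, 2 lower at ZT20, 15 with an interaction, 13 and 5 with a 24 h wave on chow and high fat diet, 7, 3 and 10 for the 12 h wave on chow, on high fat diet and for its difference, and 17 differing between times on high fat diet. The weights raised calls over all tested genes as well, to 2263 higher and 1996 lower in the day average. For the other tests no share of all tested genes under the weights is given. Without the 4 arrays of lowest weight the interaction count was 2 and the 12 h counts were 1, 0 and 0. At an adjusted p under 0.01 the counts were 5 at ZT0, 6 at ZT12, 0 at ZT16, 0 with an interaction, 3 and 1 with a 24 h wave, 1, 0 and 0 for the 12 h wave, and 10 differing between times on chow. Tests of any difference between the 6 times gave 17 and 6 factors in place of the 24 h wave on chow and high fat diet, and both waves together 16 and 6. Without each array in turn the counts ran from 4 to 14 at ZT0, 4 to 15 at ZT12, 0 to 2 at ZT16, 0 to 4 for the interaction, 5 to 10 and 2 to 4 for the 24 h wave, 1 to 6, 0 to 1 and 0 to 2 for the 12 h wave, and 13 to 18 and 6 to 8 for any difference between times. The cause of these shifts was not tested. The sample numbers were not taken as pairs. Arrays of the same number correlated at 0.0124 on average and arrays of other numbers at -0.0064, and 17 of 36 correlated best with their own number. These values cannot exclude a pairing or a shared batch. With the replicate block the day-average count was 20, and the 12 h difference went from 1 to 0. Signal over background is not given in the files, and fits hold 3 samples a group.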

Other observations

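The 24 h amplitude was larger on chow than on high fat diet for 25 of the 35 factors, with medians of 0.11 and 0.077, where the medians of all tested genes were 0.093 and 0.077. The 12 h amplitude was also larger on chow for 25 of the 35. The shares of all tested genes with a larger amplitude on chow were not counted, so no excess is read from either count. These counts carry no test, and among single factors a 24 h wave that differed between the diets was called for none.

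Of the 18 chow samples, 6 had Myc above every high fat diet sample.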
